A study of Arabidopsis thaliana with 4 samples.

Results

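Trehalose phosphate synthase genes of *Arabidopsis* were followed through chromatin loops mapped by H3K4me3 ChIA-PET in shoots of *myc2* and wild-type Col-0 seedlings. The 8 members were TPS1 and TPS5 to TPS11, taken by locus. A loop was counted for a member when 1 of its anchors overlapped the stretch between 1 kb upstream of the gene start and the gene end. By this rule the members had 39 of 32312 loops in the *myc2* list and 50 of 36723 loops in the Col-0 list. Across both lists this made 59 distinct loops, of which 30 were in both. Each of the 8 genes had exactly 1 anchor, and none of these anchors overlapped another gene by the same rule.

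Trehalose phosphate synthases make trehalose 6-phosphate from UDP-glucose and glucose 6-phosphate, and trehalose phosphate phosphatases (TPP) convert it to trehalose. In plants, trehalose 6-phosphate acts as a signal of sucrose supply and restrains SnRK1, a protein kinase that is active when sugar is scarce. TPS1 is the class I enzyme that is needed for embryo growth and flowering, whereas TPS5 to TPS11 are class II proteins, most of which show no clear synthase activity. MYC2 is the basic helix-loop-helix transcription factor at the centre of jasmonate responses and binds G-box motifs.

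ChIA-PET joins DNA ends held together in crosslinked chromatin, here chromatin enriched for H3K4me3, a mark of the 5′ ends of transcribed genes. Sequencing both ends of a junction gives a paired-end tag (PET), and loops join anchors, which are H3K4me3 peaks pooled from both genotypes. Seedlings were 2 weeks old and had grown at 22 °C with 16 h light and 8 h dark. Both groups were whole shoots, *myc2* carrying a mutation of MYC2 and Col-0 being its wild type, with no treatment named. In whole shoots, fewer cells with a contact and fewer contacts per cell cannot be told apart. There were 2 replicates of each genotype, which the authors merged before loops were called, so that 1 list per genotype was compared. No test between genotypes was possible, and all 95% intervals given in parentheses cover counting error only.

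Loops held 297390 PETs in *myc2*, with a minimum of 5 and a median of 7 per loop, against 745505 PETs in Col-0, with a minimum of 10 and a median of 16. A loop listed in Col-0 only is called lost here, and it could still have had up to 4 PETs in *myc2*. A loop listed in *myc2* only could have had up to 9 PETs in Col-0. Of 15694 anchors, 14505 had at least 300 tags in Col-0, and their median tag ratio of *myc2* over Col-0 was 0.775. Over 24896 loops in both lists the summed PET ratio was 0.432. These levels are the background for every ratio below. The anchor with most tags at MYC2 had 1423 tags in *myc2* and 3562 tags in Col-0, a ratio of 0.399 (0.375 to 0.425), but it also covers a neighbouring gene. Anchors lay on 5 of 6 shoot marker genes and on 1 of 6 root marker genes, against 17797 of all 27444 protein-coding genes.

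The promoters of TPS1, the class I gene, and TPS9, whose Col-0 loops were all lost, are printed as examples of the sequence next to the gene start. Within these 250 bases TPS1 had none of the G-box CACGTG and the related CACATG and CACGTT, and TPS9 had CACGTT. In TPS1, however, CACATG began at position -255, just outside the window. Each line holds the 250 bases before the gene start in RefSeq TAIR10.1, 5′ to 3′ on the gene's strand, and capitals mark the motif. They come from chr1:29560913-29561162 on the minus strand for TPS1 and chr1:8431929-8432178 on the plus strand for TPS9.
TPS1: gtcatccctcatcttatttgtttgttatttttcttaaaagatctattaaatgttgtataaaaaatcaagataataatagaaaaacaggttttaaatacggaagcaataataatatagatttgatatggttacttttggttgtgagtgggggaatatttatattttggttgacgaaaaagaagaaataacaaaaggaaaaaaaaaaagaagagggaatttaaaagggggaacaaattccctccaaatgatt
TPS9: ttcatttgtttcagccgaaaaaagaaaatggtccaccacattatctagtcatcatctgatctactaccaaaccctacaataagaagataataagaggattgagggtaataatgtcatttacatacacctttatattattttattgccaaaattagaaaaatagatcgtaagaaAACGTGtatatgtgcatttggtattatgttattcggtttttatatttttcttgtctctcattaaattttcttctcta

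In TPS9 the motif was read as AACGTG, the reverse complement of CACGTT, and began at position -77, counted from the gene start. With both strands searched between 250 bases before and 50 bases after the gene start, CACGTG was present in 7.68% of 27443 promoters, CACATG in 12.9% and CACGTT in 8.95%. TPS5, TPS7, TPS8, TPS10 and TPS11 had none of these letters in that window. Within 1000 bases before the gene start, TPS7 and TPS11 held CACGTG, as did 14.8% of all promoters, and TPS1, TPS5, TPS7, TPS8 and TPS10 held CACATG, as did 37.7%. In the same 1000 bases TPS7, TPS9 and TPS11 held CACGTT, as did 23.8% of all promoters. Within the anchors themselves, CACGTG occurred in 1 of 8, that of TPS8, against 12% of all anchors. CACATG occurred in 2 of 8, those of TPS1 and TPS5, against 24.1%. CACGTT occurred in 4 of 8 anchors, those of TPS7, TPS8, TPS9 and TPS11, against 18.9%. Most member anchors were wider than the median of 880 bp, which raises such shares. Per kb, the member anchors held 0.479 CACGTT, from 5 hits, against 0.219 in all anchors. For CACATG the values were 0.191 against 0.304, and for CACGTG 0.0957 against 0.149. A motif match describes letters only.

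The anchors covered the first coding part of every member, and the start codon lay inside the anchor of all 8 genes. The anchor of TPS11 was the widest at 2290 bp with 85.6% coding sequence, and that of TPS5 the narrowest at 728 bp with 8.93%. TPS1 stood apart in gene structure, with 19 exons against 3 or 4 in class II. Its anchor began 2623 bp inside the annotated gene and 1266 bp from the nearest annotated transcript start. Coding sequences of TPS1 shared 54.2% to 56.7% of bases with the 7 class II genes, which shared 63.1% to 81.0% among themselves. TPS8 and TPS9 were the most alike pair.

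H3K4me3 tag ratios at the 8 anchors lay near the median of all anchors, most of them slightly above it. The catalytic TPS1 had 1217 tags in *myc2* and 1627 tags in Col-0, a ratio of 0.748 (0.694 to 0.806) that was the lowest of the family and lay under the median of all anchors, which its interval includes. TPS9 had 971 tags in *myc2* and 1114 tags in Col-0, and its ratio of 0.872 (0.799 to 0.951) was the highest. The ratios of TPS5 (0.789), TPS10 (0.808), TPS11 (0.82), TPS8 (0.825), TPS6 (0.83) and TPS7 (0.847) lay between them. The intervals of TPS6, TPS7, TPS8, TPS9 and TPS11 lay above the median of all anchors, and those of TPS1, TPS5 and TPS10 included it. The family's median of 0.822 was 1.06 times the median of all anchors. None of the 8 differed from that median by 1.5-fold, a limit passed by 0.303% of anchors downwards and 0.00689% upwards.

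Per kb of anchor, TPS6 carried the most tags, with 1921 in *myc2* and 2315 in Col-0. TPS9 carried the fewest, with 945 in *myc2* and 1084 in Col-0. In the ranking of all anchors TPS6 lay at percentile 92.1 in *myc2* and 90.9 in Col-0, and TPS9 at percentile 26.6 in *myc2* and 18.0 in Col-0. TPS7 had 1266 tags per kb in *myc2* and 1495 in Col-0, close to the *myc2* median of all anchors, 1262, and below the Col-0 median of 1608. The other 5 members lay between 1067 and 1172 tags per kb in *myc2* and between 1321 and 1435 in Col-0. In that middle range neighbours in the order had overlapping intervals, so that their order is not resolved. The intervals of TPS6 and of TPS9 overlapped no other member's in either genotype.

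**Figure D1:**
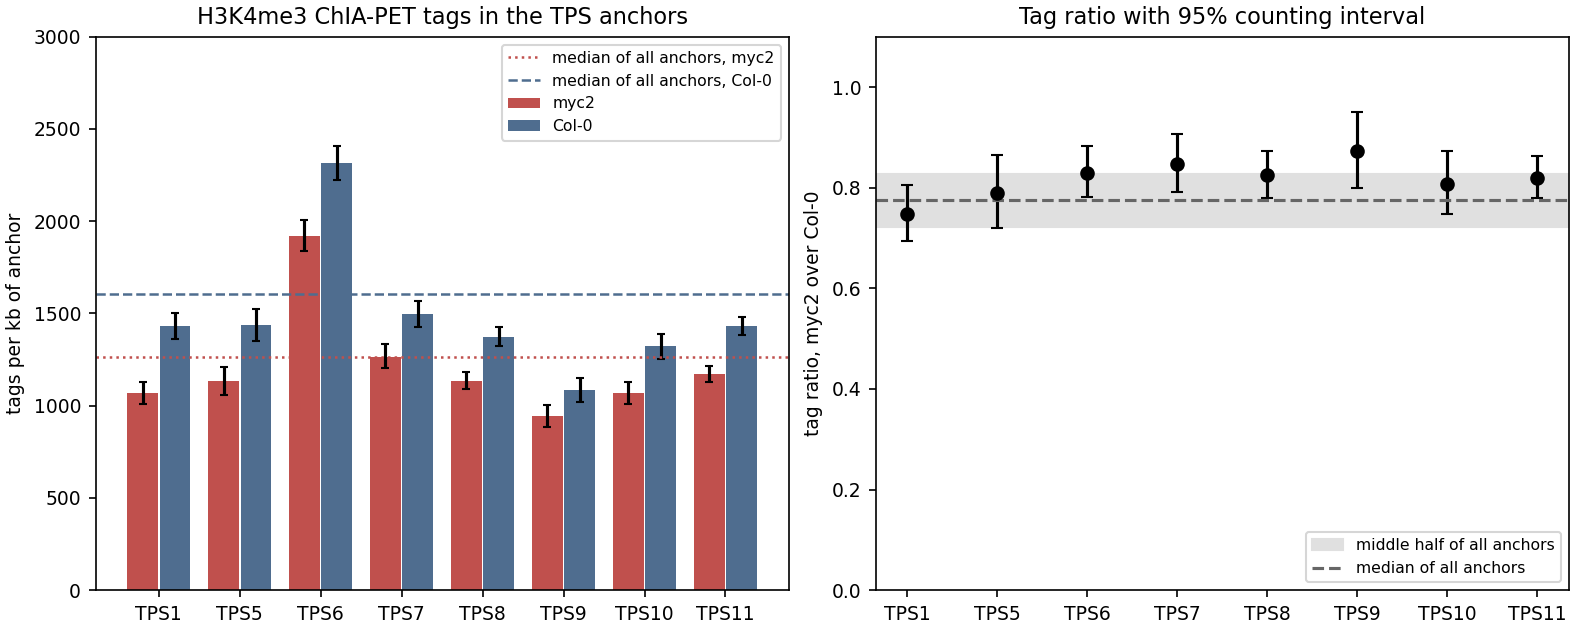
Left, H3K4me3 ChIA-PET tags per kb of anchor at the 8 TPS genes, with *myc2* bars left of Col-0 bars, exact Poisson 95% intervals and lines at the medians of all anchors. Right, tag ratio of *myc2* over Col-0 with its 95% counting interval, where all 8 points lie between 0.748 and 0.872 around or just above the median of 0.775 (dashed; band, middle quartiles 0.721 to 0.827).

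Loops were fewer in *myc2* than in Col-0 at TPS1, TPS5, TPS6, TPS8, TPS9 and TPS10, and more at TPS7 and TPS11. Of the 50 Col-0 loops of the family, 20 were lost, 40% (26.4 to 54.8), against 32.2% of all Col-0 loops, a share inside the interval. With minimums of 12 PETs in Col-0 and 5 in *myc2*, the share was 39.5% (25 to 55.6), against 24.1% of all loops, which then lay just below the interval. All 4 lost loops of TPS9 had 12 to 17 PETs in Col-0 and count in that share, which was not formed without TPS9. The level of all loops is not matched for PETs per loop. Of the 39 *myc2* loops, 9 had no counterpart in Col-0, 23.1% (11.1 to 39.3), against 23% of all *myc2* loops. At 3 of the 8 genes, TPS1, TPS8 and TPS9, 50% or more of the Col-0 loops were lost, as at 28.5% of all genes with a Col-0 loop. Without TPS9 the family's lost share in the full lists was 16 of 46, 34.8% (21.4 to 50.2). Genes connected to the members numbered 39 in *myc2* and 49 in Col-0 when summed over members. The number was lower in *myc2* at 6 members, against 49.9% of all genes with a loop, and higher at 2 members, TPS7 and TPS11, against 25.5%.

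By the study's definition a hub has at least 5 connecting genes. Genes were given to anchors by the rules used here, so that the set of hubs differs from the study's. The hubs were TPS6, TPS7 and TPS11 in *myc2*, and these 3 with TPS1 and TPS5 in Col-0. TPS1 was the only hub partially disassembled, which requires a loss of at least 3 connecting genes and a share of at least 0.3, and 12.7% of 10511 hubs met that definition. TPS5 fell below 5 in *myc2* but its loss of 2 connecting genes left it in the stable class with TPS6, TPS7 and TPS11, a class that held 82.8% of hubs. No member hub was entirely disassembled or newly formed, against 0.771% of hubs entirely disassembled and 3.7% newly formed.

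**Figure D2:**
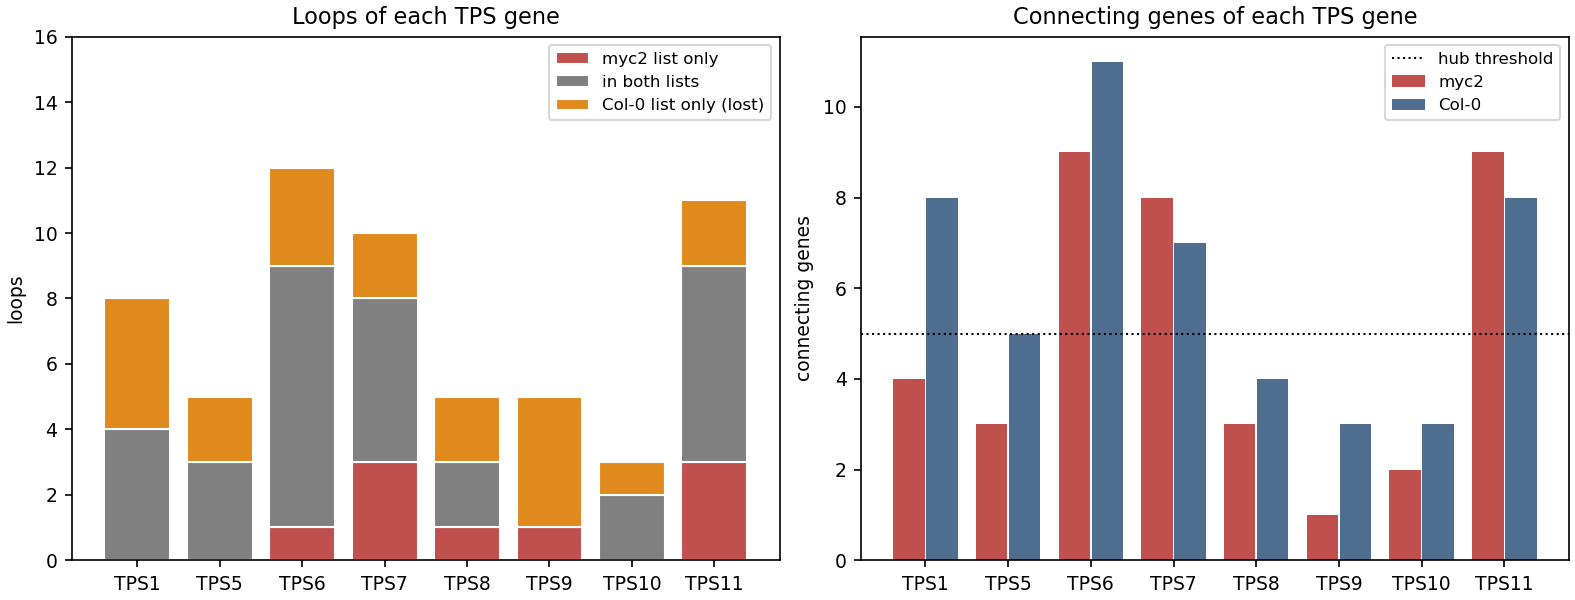
Left, loops of each TPS gene split into those in the *myc2* list only, in both lists and in the Col-0 list only (lost). Right, connecting genes in *myc2* (left bars) and Col-0 (right bars) with the hub threshold of 5 as a dotted line. TPS9 has no loop in both lists, and TPS1 has 4 connecting genes in *myc2* against 8 in Col-0.

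The lost loops were mostly those with few PETs in Col-0. Their median was 14.5 PETs in Col-0, against 18.5 PETs for the members' loops in both lists. None of the 7 member loops with at least 30 PETs was lost. Of all loops, 1.57% were lost at 30 to 39 PETs and 0.114% at 40 or more. With at least 20 PETs, 1 of 14 member loops was lost, against 6.41% of all such loops. Of the 36 loops with 10 to 19 PETs, 19 were lost, 52.8% (35.5 to 69.6), against 47.4% of all loops in that range. Within this range the members' lost share was 3 of 7 at 10 to 11 PETs, where 65.1% of all loops were lost, 7 of 11 at 12 to 14 PETs, where 49.5% were, and 9 of 18 at 15 to 19 PETs, where 29.5% were. At 15 to 19 PETs the members' share of 50% has an interval of 26 to 74%, which includes 29.5%.

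The span of the loops, the distance between anchor centres, ranged between 2.84 and 93.4 kb with a median of 12.6 kb. Of member loops under 10 kb in Col-0, 9 of 20 were lost, 45.0% (23.1 to 68.5), against 19.5% of all loops of that span. Between 10 and 20 kb, 6 of 22 were lost, 27.3% (10.7 to 50.2), against 34.0%, and between 20 and 40 kb, 5 of 8, against 54.3%. The interval under 10 kb lies above the level of all loops, but these 20 loops share the members' anchors and were not tested. Of the 9 lost short loops 4 were at TPS9, and without that gene the count was 5 of 16, 31.2% (11 to 58.7), an interval that includes 19.5%. Loops of at least 40 kb numbered 4 in *myc2* and 0 in Col-0, and such loops made up 4.78% of all *myc2* loops and 2.33% of all Col-0 loops. Median span was 25.1 kb for loops in *myc2* only, 11.3 kb for loops in both lists and 12.4 kb for lost loops.

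TPS1 (AT1G78580, chr1:29552340-29560912, minus strand) had 4 loops in *myc2* and 8 loops in Col-0, and all 4 of the *myc2* loops were also in Col-0. Its strongest partner was RHM1, a UDP-rhamnose synthase gene next to it downstream, with 32 PETs in *myc2* and 80 PETs in Col-0. SPS1, a solanesyl diphosphate synthase gene 20.9 kb away, had 11 PETs in *myc2* and 11 PETs in Col-0, the highest ratio of the family's loops at 1.0 (0.393 to 2.54). AT1G78560 had 9 PETs in *myc2* and 17 in Col-0, and MSL6, which encodes a mechanosensitive channel-like protein, had 7 in *myc2* and 16 in Col-0. The 4 lost loops led to NADK3, an NADH kinase gene, with 17 PETs in Col-0, AT1G78550 with 16, AT1G78620 with 15 and LZF1, a light-regulated zinc finger gene, with 12. Of these, 3 lay upstream of TPS1, among them the nearest upstream anchor at NADK3, and the upstream loop that stayed in both lists, to MSL6, passed over NADK3 and LZF1.

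TPS5 (AT4G17770, chr4:9876172-9880386) is a class II gene whose 3 *myc2* loops were all among its 5 Col-0 loops. HSF1, a heat shock factor gene, had 9 PETs in *myc2* and 18 in Col-0. AT4G17790 had 7 in *myc2* and 16 in Col-0, and the syntaxin gene SYP23 had 5 in *myc2* and 12 in Col-0. The lost loops were the 2 longest, to AT4G17800 at 19.4 kb with 12 PETs in Col-0 and to AT4G17830 at 39.5 kb with 11.

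TPS6 (AT1G68020, chr1:25496928-25500584) had 9 loops in *myc2*, as many as TPS11, and 11 in Col-0, the most of the family, of which 8 were in both lists. Its strongest was to AT1G68030 immediately downstream, with 20 PETs in *myc2* and 51 in Col-0. Upstream, HPR, the peroxisomal hydroxypyruvate reductase of photorespiration, had 13 PETs in *myc2* and 37 in Col-0, and PIS1, a phosphatidylinositol synthase gene, had 12 in *myc2* and 34 in Col-0. These 3 nearest strong loops had PET ratios of 0.392, 0.351 and 0.353, all with intervals that include 0.432. The other 5 shared loops, to FKF1 (a blue light photoreceptor gene), HSFA8 (a heat shock factor gene), POD1, MAP70-1 and IAR1, had 5 to 13 PETs in *myc2* and 10 to 25 in Col-0. Of its lost loops AT1G67930 had the most PETs in Col-0, 14, and the others were AT1G67950 with 11 and AT1G68080 with 10. A loop to AT1G67890, 40.1 kb upstream, was in *myc2* only with 5 PETs.

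TPS7 (AT1G06410, chr1:1954674-1958866) had 8 loops in *myc2* and 7 in Col-0, with 5 in both lists. Its strongest loops in Col-0 were to GSK1, a shaggy-like kinase gene, with 8 PETs in *myc2* and 20 in Col-0, to AT1G06380 with 7 in *myc2* and 19 in Col-0 and to AT1G06450 with 6 in *myc2* and 19 in Col-0. AT1G06440 had 6 in *myc2* and 13 in Col-0, and ACD32.1 had 5 in *myc2* and 12 in Col-0. The lost loops were those to the nearest anchor on each side, while all 5 shared loops passed over 1 of them. ARA-2, a Rab GTPase gene 2.84 kb upstream, had 16 PETs in Col-0, and FTSH8, a thylakoid protease gene 7.32 kb downstream, had 13. The 3 loops in *myc2* only had 5 PETs each and were the longest of the family, to MEE5 at 55.0 kb, AT1G06200 at 58.2 kb and PSBP-1, a subunit gene of the oxygen-evolving complex, at 93.4 kb. They lie at the minimum of the *myc2* list.

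TPS8 (AT1G70290, chr1:26470795-26474833, minus strand) had 3 loops in *myc2* and 4 in Col-0, with 2 in both lists. These led to its nearest neighbours, AT1G70280 with 16 PETs in *myc2* and 49 in Col-0, and KUP6, a potassium transporter gene, with 12 in *myc2* and 17 in Col-0. The lost loops were to TBL27, a gene for xyloglucan acetylation, with 19 PETs in Col-0 and to the spermidine synthase gene SPDS2 with 16. AT1G70250 was reached in *myc2* only, with 5 PETs. Its anchor lies between TPS8 and TBL27, on the same side as the lost loop.

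TPS9 (AT1G23870, chr1:8432179-8435656) was the only member with no loop in both lists. Its 4 Col-0 loops were all lost, as were those of 1.94% of 2211 genes with exactly 4 Col-0 loops and of 0.524% of 12406 genes with at least 4. They led to AT1G23830 with 15 PETs in Col-0, to the splicing factor gene RSZ21 with 12, and to a pair of anchors at AT1G23890 with 14 and 17. All were within 8.92 kb, and each may still have had up to 4 PETs in *myc2*. Their Col-0 PETs multiplied by the ratio of all shared loops give 5.18 to 7.34 PETs, close to the *myc2* minimum of 5. That ratio, 0.432, holds only loops that reached this minimum. Over shared loops of at least 40 PETs in Col-0 the ratio was lower, 0.394, which would give fewer PETs. Some member loops in both lists had values as low by the ratio of 0.432, such as 5.18 for TPS5 to SYP23. Whether the *myc2* minimum accounts for the losses at TPS9 was not tested. Its only *myc2* loop, to AT1G23880 at 3.96 kb downstream, had 9 PETs in *myc2* and was not listed in Col-0, where it may have had up to 9. The anchors around TPS9 kept their own contacts. Among the 10 pairs of its 5 partner anchors, 7 were looped in *myc2* and 6 in Col-0, and 6 were looped in both. Such counts were not made for genes outside the family. The anchor of TPS9 itself had the highest tag ratio of the family, as given above.

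TPS10 (AT1G60140, chr1:22176934-22181740, minus strand) had 2 loops in *myc2* and 3 in Col-0, all on its upstream side. The partner emb1220, named for an embryo-defective mutant, had 9 PETs in *myc2* and 24 in Col-0, and AT1G60160 had 5 in *myc2* and 15 in Col-0. The loop to the ubiquitin ligase gene PUB19, at 18.9 kb the longest, was lost and had 15 PETs in Col-0.

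TPS11 (AT2G18700, chr2:8108898-8112010) had 9 loops in *myc2* and 8 in Col-0, with 6 in both lists. The loop of the family with most PETs in Col-0 joined it to SCY1, a gene of the thylakoid protein translocase 4.24 kb downstream, with 23 PETs in *myc2* and 84 in Col-0. Its ratio of 0.274 (0.165 to 0.439) was the lowest of the 30 shared loops and the lone case at least 1.5-fold under 0.432, against 11.7% of all shared loops. Its interval just includes 0.432. AT2G18670 had 18 PETs in *myc2* and 50 in Col-0, and AT2G18690 had 12 in *myc2* and 27 in Col-0. The other shared loops, to AT2G18740, AT2G18750 and AT2G18630, had 8 to 10 PETs in *myc2* and 13 to 26 in Col-0. The lost loop to DGK3, a diacylglycerol kinase gene, had 21 PETs in Col-0, the most of any lost loop of the family, and that to the red light photoreceptor gene PHYB had 12. Loops in *myc2* only led to AT2G18770 with 7 PETs, MEE16 with 6 and the chromatin remodeler gene CHR8 with 5.

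**Figure D3:**
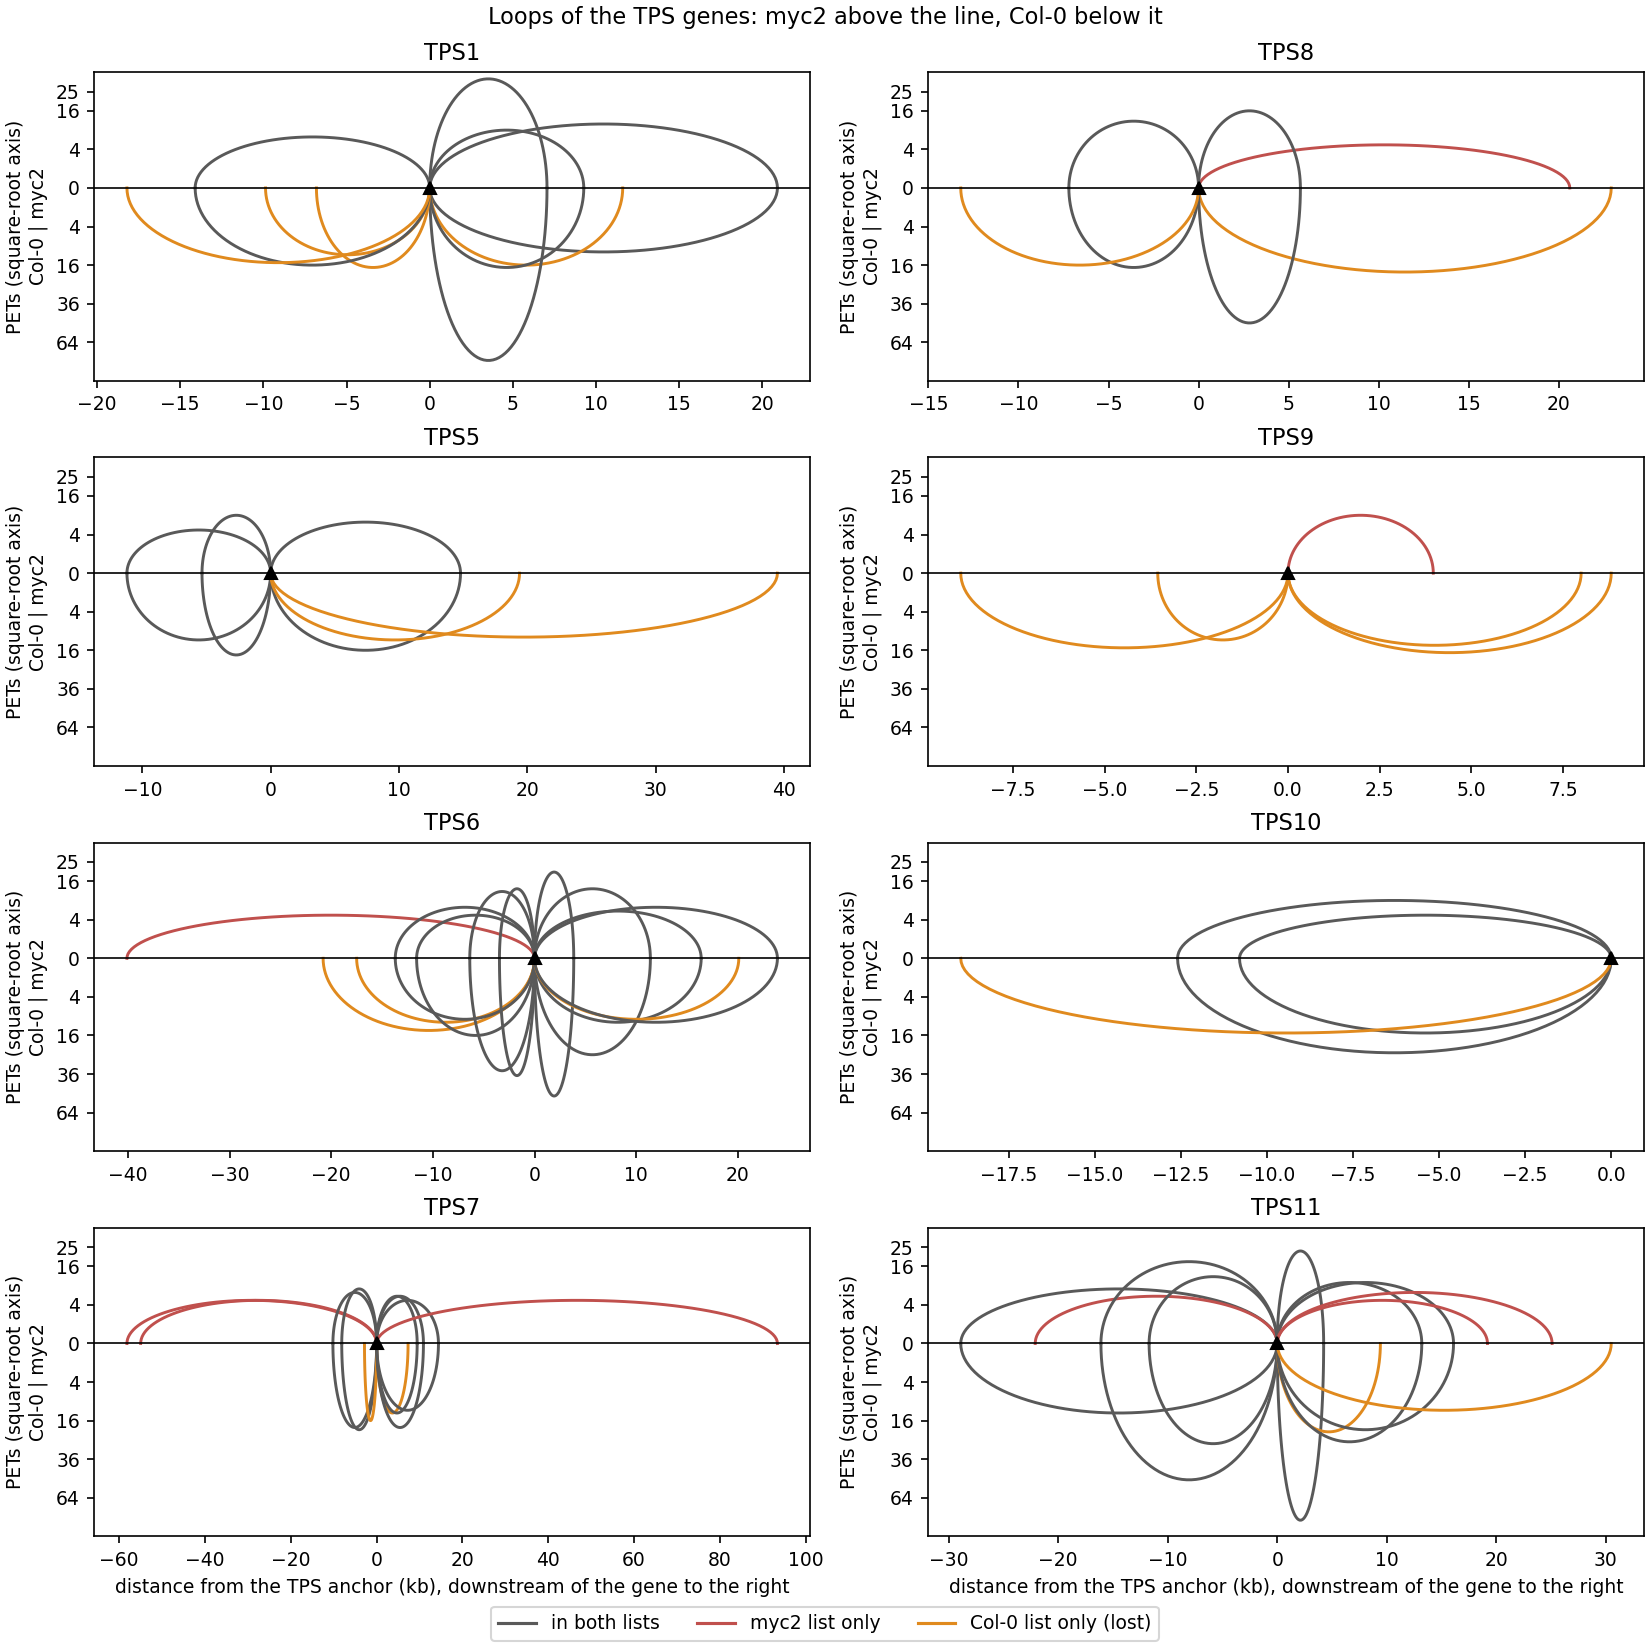
Loops of the 8 TPS genes as arcs on the axis of distance (kb) between the TPS anchor (triangle) and its partner, with *myc2* above and Col-0 below the line and arc height as PETs on a square-root scale. Grey loops are in both lists, red in *myc2* only and orange in Col-0 only; at TPS9 no arc is grey, and at TPS7 the red arcs reach 93.4 kb.

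PETs of the 30 shared loops summed to 318 in *myc2* and 773 in Col-0, a ratio of 0.411 (0.360 to 0.469) that was 0.953 of the ratio of all shared loops. Over the 13 shared loops with at least 20 PETs in Col-0 the sums were 196 in *myc2* and 527 in Col-0, a ratio of 0.372 (0.314 to 0.439), against 0.399 over 12738 such loops. The contacts that the family held in both genotypes had thus about the PET ratio of loops in general. By gene, the ratio lay between 0.359 (0.180 to 0.676) at TPS10 and 0.476 (0.343 to 0.654) at TPS1, with TPS11 at 0.368, TPS7 at 0.386, TPS8 at 0.424, TPS6 at 0.426 and TPS5 at 0.457, and every interval included 0.432. None of these 7 genes was 1.5-fold from that ratio, against 3.25% of genes under it and 3.57% over it. Single loops had a median ratio of 0.417, against 0.437 over all shared loops. Besides the SCY1 loop, 3 loops were at least 1.5-fold over 0.432, against 11.5% of all shared loops. These were TPS1 to SPS1, TPS6 to POD1 with 7 PETs in *myc2* and 10 in Col-0, and TPS8 to KUP6, all with intervals that include 0.432.

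**Figure D4:**
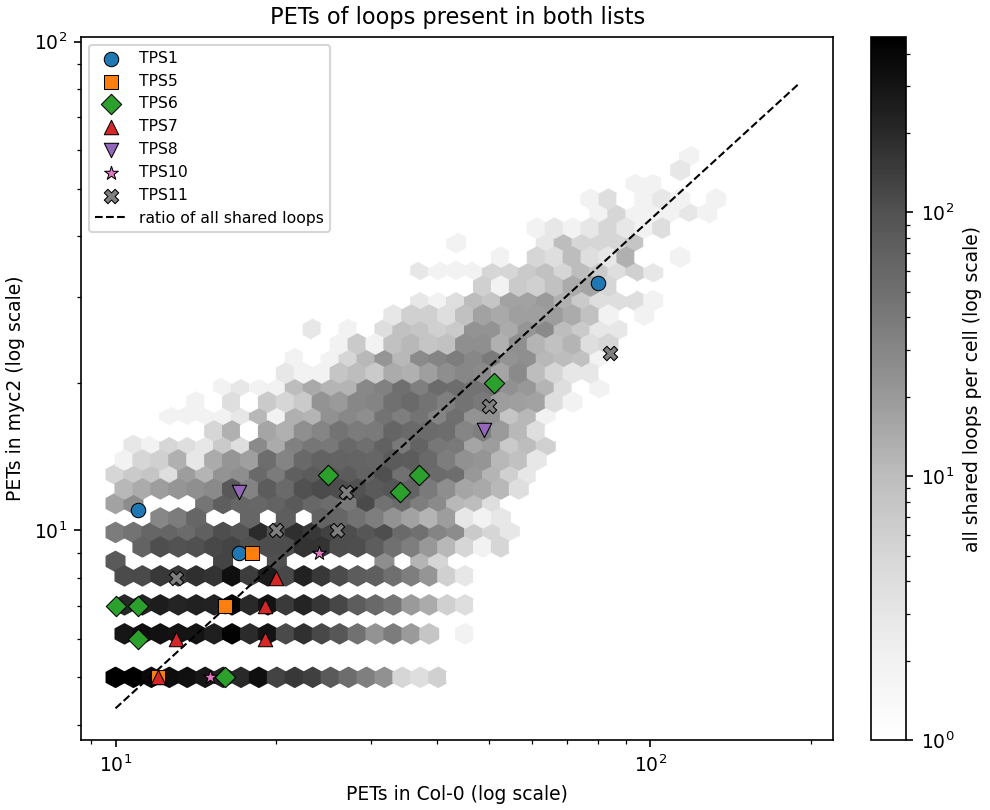
PETs in *myc2* (vertical, log scale) against PETs in Col-0 (horizontal, log scale) for the 30 shared TPS loops, coloured by gene, over the density of all 24896 shared loops in grey. The dashed line is the ratio of all shared loops, 0.432, and the TPS11 loop to SCY1 (23 in *myc2*, 84 in Col-0) lies furthest under it.

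No loop joined a pair of members, and none joined a member to a gene of the pathway list described below. The loops led to 58 distinct partner genes. Partners were placed evenly, 29 upstream and 30 downstream, and 44 of the 59 loops passed over at least 1 listed anchor. Of the 15 loops to the nearest anchor, 10 were in both lists, 4 were lost and 1 was in *myc2* only. Partner anchors had tag ratios like those of anchors in general. The median tag ratio of partner anchors was 0.775 for *myc2*-only loops, 0.786 for loops in both lists and 0.754 for lost loops, within a range of 0.656 at KUP6 to 0.96 at RSZ21.

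The other genes of trehalose metabolism and SnRK1 signalling were examined from a list of 21, of which 12 had an anchor in these lists. Of all 27444 protein-coding genes, 17797 had an anchor. The 12 listed genes had 51 loops in *myc2* and 56 in Col-0, and 13 of the Col-0 loops were lost, 23.2% (13 to 36.4). This interval includes the 32.2% of all loops. Connecting genes were fewer in *myc2* at 7 of the 12, against 49.9% of all genes with a loop, and more at 2, against 25.5%. Of the TPP genes, 4 of 10 had an anchor, TPPA, TPPC, TPPG and TPPJ, and 2 of their 13 Col-0 loops were lost. The SnRK1 group, which holds the kinase subunits KIN10 and KIN11, the beta subunits, SNF4 and the sugar-responsive factor bZIP11, had an anchor at all 7 genes and lost 9 of 39 Col-0 loops. Tag ratios of the listed genes lay between 0.737 and 0.864 with a median of 0.796, and none passed 1.5-fold. TRE1, the trehalase gene, had no anchor. Among the other class I genes TPS2, TPS3 and TPS4, TPS4 alone had an anchor, which it shared with another gene.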

How the data were processed

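The lists were made by the authors from 2 merged replicates per genotype with ChIA-PET Tool V3 on TAIR10, with anchors taken from H3K4me3 ChIP-seq peaks merged over the genotypes, at an FDR under 0.05. The mapper within that tool is not given in the sources used here. Reads of the ChIP-seq that gave the anchors were mapped with BWA-MEM. Deposited lists hold counts of PETs per loop and of tags per anchor, unscaled for depth. A p-value, an FDR, both as −log10 values, and a distance stand beside each loop as the authors deposited them, and of these the FDR was used. The highest FDR was 0.000111 in *myc2* and 3.18e-10 in Col-0, so that the PET minimum decided which loops were listed.

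The members and gene lists were chosen with earlier results of these data known. Genes came from RefSeq TAIR10.1, which holds 27444 protein-coding genes, and no anchor ended past its chromosomes. Promoters and coding sequences were read from that genome. The promoter of 1 member is not reported here. Loops were matched when both anchors overlapped, and a partner anchor counted for the 1 gene with the largest overlap. Shares have exact Clopper-Pearson intervals, ratios exact binomial and levels exact Poisson intervals, each at 95%. The named partners are all those of members with up to 6 partners and, for the others, the 3 strongest Col-0 loops and the strongest lost or *myc2*-only loops. Other partners were named after their values were seen. Scripts were tested on simulated data. Alternatives were other PET minimums, a stricter FDR, other rules for anchors, matching and partner genes, and other levels for ratios. Python 3.11.15, numpy 2.4.6, pandas 2.3.3, scipy 1.17.1, matplotlib 3.10.9 and biopython 1.88 were used.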

Additional observations from a re-analysis of the deposited data

How the results depend on the processing

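Of 12 processing alternatives, the PET minimum moved most values. With at least 10 PETs required in both lists, the members had 13 loops in *myc2*. Of their Col-0 loops 74.0% were lost (72.3% of all loops), and of their *myc2* loops 0.0% lacked a counterpart (1.64% of all). Connecting genes in *myc2* were 13, hubs in *myc2* were 1, and 5 hubs counted as disassembled. The share of all hubs so counted was not formed at this setting, so that the 5 cannot be called particular to the TPS genes. The change in connecting genes then reversed at TPS7, to -7, and at TPS11, to -3, and grew to -7 at TPS6 and -5 at TPS5. With minimums of 12 PETs in Col-0 and 5 in *myc2*, 39.5% (25 to 55.6) were lost against 24.1% of all loops. That level lay outside the interval, as 32.2% in the full lists did not. The 4 lost loops of TPS9 count in the 39.5%, and the share without TPS9 was not formed. At these minimums 33.3% (19.1 to 50.2) were in *myc2* only against 30.7%, and TPS6 reversed to 3 more connecting genes in *myc2*. Where the anchor had to overlap the promoter, disassembled hubs were 0, since the anchor of TPS1 lies too far inside the gene. The restriction to shared loops of at least 20 PETs was added after seeing the data. Among the alternatives run, the other 126 values of main results and 89 values of single genes stayed within the main value's interval, within 1.5 times of it or within fewer than 3 connecting genes of it. Among them, the PET ratio of shared TPS loops relative to all shared loops lay under 1 at 0.953 and over 1 at 1.04 with strong shared loops as the level. Matching by 50% of each anchor gave identical loops, since anchors do not overlap one another. Several other alternatives could not move the counts either. The stricter FDR removed no loop, and no member loop joined different chromosomes. Each member had 1 anchor that overlapped no other gene, and other levels enter only the ratios. The 126 and 89 unchanged values thus include many that were fixed in advance.

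No paired analysis was possible because the replicates were merged before loops were called, and for the same reason no replicate was left out. PET minimums of 5 in *myc2* and 10 in Col-0 limit what single loops can show, since a loop under its list's minimum is not told apart from an absent one.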

Other observations

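The partners of the TPS genes also looped among themselves. Of 227 pairs of partner anchors of the same member, 87 were joined in *myc2* and 99 in Col-0, and 75 in both. This share was not formed for other genes, so that it cannot be called particular to the TPS genes. At TPS6, 26 of 66 pairs were joined in *myc2* and 26 in Col-0, with 20 in both. At TPS11, 23 of 55 were joined in *myc2* and 26 in Col-0. TPS8 had the sparsest surroundings relative to its partners, with 1 of 10 pairs joined in *myc2* and 3 in Col-0.

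SNF4, the gamma-type subunit gene of SnRK1, had an anchor listed in Col-0 only, with 703 tags and 1 loop of 15 PETs. In *myc2* its anchor took part in no listed loop, so that its tags there are not known and no ratio was formed.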
